A study of Homo sapiens with 8 samples.

Results

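The 4 MEF2 transcription factor genes (MEF2A, MEF2B, MEF2C and MEF2D) and the 4 genes of the class IIa histone deacetylases (HDAC4, HDAC5, HDAC7 and HDAC9) were examined as 8 of the 62826 genes of the deposited gene tables. They were chosen by symbol, as a family and its best-known repressors, because MEF2B had one of the large increases after treatment in these same libraries. The difference of each member between the groups is therefore given as a description. All 8 symbols matched 1 gene each, and all 8 passed the filter on low counts.

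MEF2 factors bind DNA as dimers through an amino-terminal MADS box and the adjoining MEF2 domain, and act as switches between repression and activation. Class IIa deacetylases dock on the MEF2 domain and recruit corepressors, and calcium-dependent kinases phosphorylate them so that 14-3-3 proteins hold them in the cytoplasm. In neurons MEF2 factors are known for activity-dependent transcription, synapse number and survival, with MEF2A, MEF2C and MEF2D as the usual neuronal members, whereas MEF2B is best known from germinal-centre B cells.

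The cells were LUHMES, an established human mesencephalic line that is conditionally immortalised and becomes dopaminergic neurons when its v-myc transgene is switched off. All libraries came from cells differentiated for 6 days with dibutyryl cAMP, GDNF and tetracycline. The treated group received 25 µM antimycin A, which blocks respiratory complex III, and 10 µM oligomycin, which blocks the mitochondrial ATP synthase, for 8 h. The vehicle group received DMSO for the same time. Each group held 4 independent differentiation batches, numbered 2 to 5, and the series description states 4 technical replicates per batch. The cells are 1 line, so the spread between libraries is a spread between batches. The pair of drugs was given together, so neither drug can be told apart from the other.

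The libraries held 93717712 to 110020746 estimated reads. The 10 neuron markers had reads in every library, with summed levels of 3416 to 3605 CPM (estimated reads scaled to a common library size, with library totals adjusted by TMM) in the treated group and 4179 to 4436 CPM in the vehicle group. Most of the sum was TUBB3 and STMN2, which were called lower with MAP2 and DDC, while RBFOX3, SNAP25 and the dopaminergic marker TH were called higher. The other dopaminergic markers, SLC18A2 and DDC, stayed under 0.7 CPM. Vehicle library 2 stood apart from the other vehicle libraries on the second principal component (-54.8 against 14.5 to 22.9), and treated library 5 lay apart to a smaller degree (-13.4 against 1.91 to 5.42). Values without one or the other are given beside results in which it lay far from its group. In bulk RNA a smaller number of cells of a type cannot be told apart from less RNA per cell.

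MEF2B (chr19:19145568-19170289, minus strand) was close to silent in vehicle neurons and, corrected for length, the most abundant of the MEF2 genes after treatment. Its level was 70.3, 62.9, 63.6 and 42.7 CPM in treated libraries 2 to 5. It was 0.635, 1.15, 0.841 and 0.471 CPM in vehicle libraries 2 to 5. The groups were far apart, and treated library 5 was the lowest of its group. The mean was 59.9 ± 11.9 CPM in treated and 0.773 ± 0.291 CPM in vehicle neurons (SD, n = 4), a 77.4-fold ratio of means and a fitted log2 fold change of 6.27 ± 0.267 (edgeR). Each log2 fold change is treated minus vehicle and is followed by its standard error. Behind these values stood 4083 to 6923 estimated reads per treated library and 54.5 to 127 per vehicle library. By log2 fold change MEF2B ranked 27 of the 19785 genes tested. By mean TPM (a level that allows for transcript length) it ranked 1654 in treated and 14324 in vehicle neurons.

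MEF2D (chr1:156463727-156500828, minus strand), which is widely expressed and linked to survival of dopaminergic neurons, was the other MEF2 gene with a large difference. Its level was 168, 172, 184 and 149 CPM in treated libraries 2 to 5. It was 71.8, 70.7, 72.7 and 71.1 CPM in vehicle libraries 2 to 5. The vehicle libraries lay close together, between 70.7 and 72.7 CPM, and every treated library lay above all of them, with a log2 fold change of 1.23 ± 0.071.

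MEF2A (chr15:99565417-99716466, plus strand), the other broadly expressed member, differed little. Its level was 92.5, 95.5, 96.1 and 101 CPM in treated libraries and 91.3, 75.2, 74.1 and 73.8 CPM in vehicle libraries 2 to 5. The groups did not overlap, but vehicle library 2 reached almost the lowest treated value. The log2 fold change was 0.29 ± 0.078, and 0.37 without vehicle library 2.

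MEF2C (chr5:88717117-88904257, minus strand), which acts in neuronal differentiation and synapse control, had overlapping groups. Its level was 41.8, 42.9, 43.7 and 46.6 CPM in treated libraries and 45.9, 36.9, 36.9 and 38.5 CPM in vehicle libraries 2 to 5. The log2 fold change was 0.15, below the threshold of the fit, and 0.22 without vehicle library 2, where it passed that threshold.

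HDAC5 (chr17:44076746-44123702, minus strand), a class IIa deacetylase abundant in brain, had the highest length-corrected level of the class IIa deacetylases in both groups. Its level was 149, 152, 151 and 116 CPM in treated libraries and 49.5, 65.2, 69.2 and 68.4 CPM in vehicle libraries 2 to 5. Treated library 5 and vehicle library 2 were each the lowest of their group, and the groups did not overlap. The log2 fold change was 1.17 ± 0.122, 1.07 without vehicle library 2 and 1.26 without treated library 5.

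HDAC4 (chr2:239048168-239401654, minus strand), which in neurons shuttles between nucleus and cytoplasm, was also higher in every treated library than in any vehicle library. Its level was 55.2, 57.2, 55.8 and 48.9 CPM in treated libraries and 25.7, 28.95, 30.6 and 32.3 CPM in vehicle libraries 2 to 5. The log2 fold change was 0.89 ± 0.085, and 0.59 when the authors' effective gene lengths entered the fit.

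HDAC7 (chr12:47782722-47833132, minus strand), best known from thymocytes and endothelium, and HDAC9 (chr7:18086949-19002416, plus strand), known from muscle and cortical neurons, had overlapping groups. HDAC7 was at 23.7, 23.8, 21.1 and 15.6 CPM in treated libraries and 20.1, 27.4, 21.8 and 21.5 CPM in vehicle libraries 2 to 5. HDAC9 was at 2.33, 2.47, 2.73 and 3.19 CPM in treated libraries and 3.51, 2.98, 2.39 and 2.72 CPM in vehicle libraries 2 to 5. Each had a log2 fold change of -0.11, and that of HDAC7 was 0.01 without treated library 5.

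Across the 8 members, 5 were called higher in treated neurons at an adjusted p under 0.05 (edgeR quasi-likelihood test, Benjamini-Hochberg over all genes), 0 were called lower and 3 had no call. Over all 19785 genes tested, 27.7% were called higher, 30.2% lower and 57.9% in either direction. The members' median log2 fold change was 0.59, against -0.02 over all genes tested. The members were chosen on this contrast, so nothing is read from these counts. Scaled by library totals alone, 4280 genes were called higher and 7023 lower, against 5484 and 5977. Without vehicle library 2, MEF2C joined the genes called higher, which made 6. The log2 fold changes of MEF2B, MEF2D and HDAC4 were 6.19, 1.23 and 0.82 without vehicle library 2, and 6.40, 1.29 and 0.94 without treated library 5. In the authors' deposited table the log2 fold changes were 6.29 for MEF2B, 1.24 for MEF2D, 0.25 for MEF2A, 1.15 for HDAC5 and 0.88 for HDAC4.

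**Figure D1:**
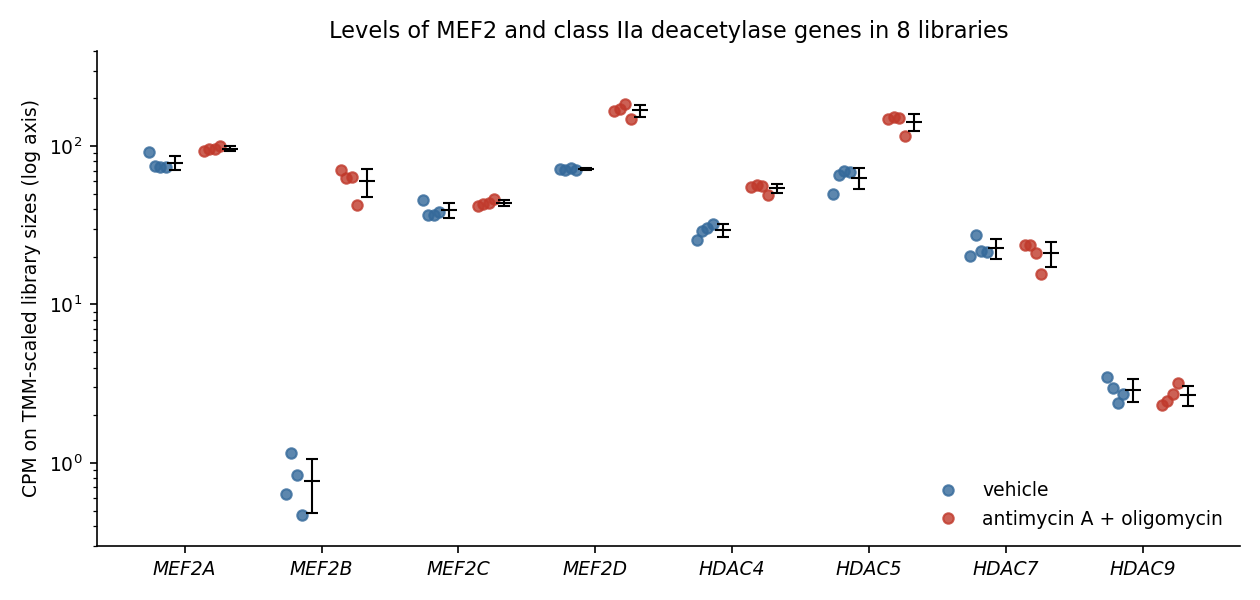
Level of each member in CPM on a log axis, with 1 point per library (blue, vehicle; red, treated; left to right, batches 2 to 5) and the mean ± SD of the 4 libraries beside each group. MEF2B moved from 0.471 to 1.15 CPM in vehicle to 42.7 to 70.3 CPM in treated libraries, whereas the groups of MEF2C, HDAC7 and HDAC9 overlap.

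Length-corrected levels gave the order of the members in each group. In vehicle neurons HDAC5 (35.4 ± 7.83 TPM), MEF2A (34.4 ± 0.456 TPM) and MEF2D (29.6 ± 3.65 TPM) led. HDAC5 could not be separated from MEF2A or MEF2D by its libraries, while all MEF2A libraries lay above all MEF2D libraries. MEF2C followed at 20.6 ± 1.66 TPM and overlapped HDAC7 at 16.4 ± 2.45 TPM. HDAC4 was at 9.50 ± 1.92 TPM. MEF2B (1.35 ± 0.550 TPM) and HDAC9 (1.19 ± 0.0980 TPM) were lowest and overlapped.

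In treated neurons MEF2B came first at 103 ± 10.7 TPM, with every library above every library of the next gene. HDAC5 (76.9 ± 6.04 TPM) and MEF2D (69.9 ± 5.84 TPM) overlapped, and MEF2A (41.4 ± 1.67 TPM) and MEF2C (21.95 ± 1.47 TPM) came after them without overlap. HDAC4 (14.02 ± 0.331 TPM) and HDAC7 (13.1 ± 2.20 TPM) overlapped, and HDAC9 stayed lowest at 1.02 ± 0.117 TPM.

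The make-up of both families differed between the groups. The 4 MEF2 genes together summed to 236 ± 13.0 TPM in treated and 85.98 ± 3.13 TPM in vehicle neurons. MEF2B supplied 47.2, 43.4, 43.2 and 40.5% of that sum in treated libraries 2 to 5, against 1.27, 2.33, 1.74 and 0.936% in vehicle libraries 2 to 5. Without MEF2B the sum was 133 ± 6.43 against 84.6 ± 2.94 TPM. MEF2A supplied 17.6 ± 1.56% of the sum in treated and 40.1 ± 1.96% in vehicle neurons, and MEF2C 9.32 ± 0.974% and 23.95 ± 2.07%. The share of MEF2D was 29.5 ± 1.24% and 34.4 ± 3.37%. These shares are of RNA, and proteins were not measured.

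The 4 class IIa deacetylases together summed to 105 ± 7.69 TPM in treated and 62.5 ± 5.87 TPM in vehicle neurons. HDAC5 supplied 73.2 ± 1.43% of that sum in treated neurons. In vehicle libraries 2 to 5 it supplied 44.4, 56.2, 62.2 and 61.9%, so vehicle library 2 lay below the other three. HDAC7 supplied 12.4 ± 1.47% and 26.3 ± 4.34%, in that order of groups.

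**Figure D2:**
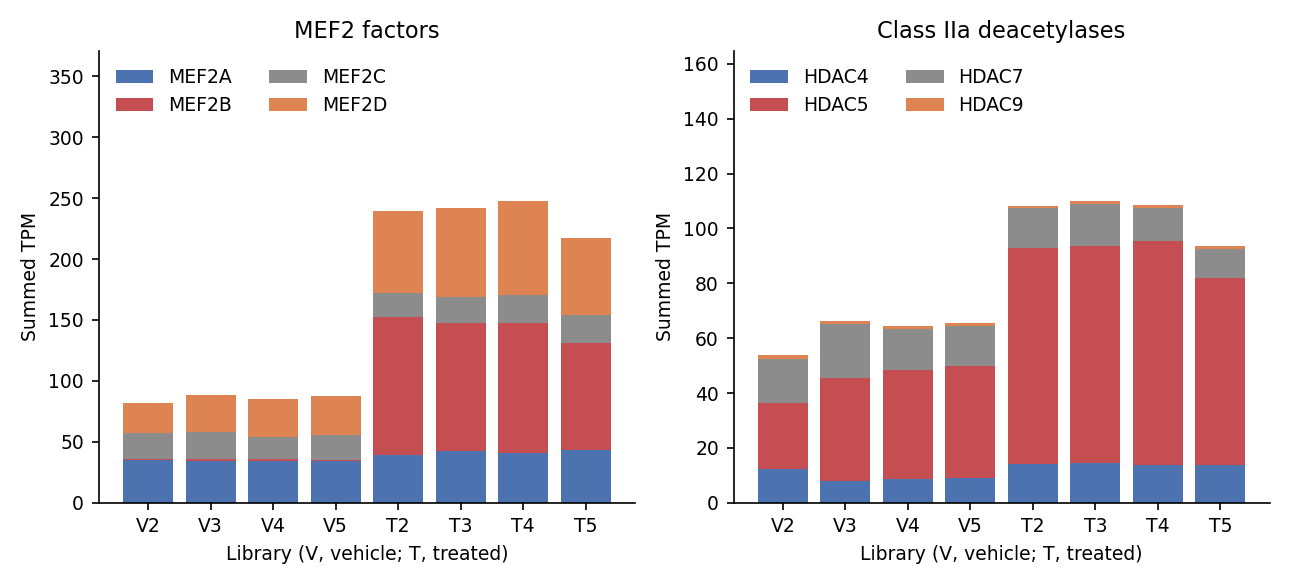
Stacked TPM of the 4 MEF2 genes (left) and the 4 class IIa deacetylase genes (right) in each vehicle (V) and treated (T) library. The MEF2 sum is 81.8 to 88.8 TPM in vehicle and 218 to 247 TPM in treated libraries, with MEF2B in red.

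MEF2B shares its exons with a read-through gene, BORCS8-MEF2B (chr19:19145567-19192158, minus strand), which starts at the upstream BORCS8 gene and runs into MEF2B. Reads from the shared exons cannot be told apart between them, so the first exons decide the estimates. In the deposited gene tables, 1 transcript that GENCODE release 29 places in the read-through gene (BORCS8-MEF2B-202) was counted to MEF2B. Sorted by transcript start instead, 87.7, 88.1, 88.7 and 89.1% of the reads of both genes in treated libraries 2 to 5 belonged to the 4 transcripts that start in MEF2B itself (chr19:19170245 to 19170289). In vehicle libraries 2 to 5 the share was 43.7, 47.7, 51.0 and 13.4%, from 132 to 190 reads per library.

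Transcripts with the MEF2B start held 6659, 5559, 6510 and 3764 estimated reads in treated libraries, against 57.6, 80.3, 86.6 and 25.4 reads in vehicle libraries 2 to 5. Transcripts with an upstream start held 935, 752, 826 and 459 reads against 74.3, 88.2, 83.2 and 164 reads. Both kinds were higher in every treated library, and the difference was larger for the MEF2B start. Reads of the shared exons were divided by estimate, so the upstream-start difference was not measured apart from that of MEF2B.

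By the same division of reads, the read-through gene alone was at 5.40 ± 2.65 CPM in treated and 0.793 ± 0.324 CPM in vehicle neurons. Its log2 fold change was 2.77 ± 0.476, given as a description because its reads were divided from those of MEF2B. Treated library 5 was the lowest of its group at 1.47 CPM, and without it the log2 fold change was 3.08. The authors' deposited table gives a log2 fold change of 4.04 for it. Within the read-through gene, the coding transcript BORCS8-MEF2B-203 held 75.0 ± 7.20% of reads in treated and 11.9 ± 20.1% in vehicle neurons. BORCS8-MEF2B-207, annotated as a target of nonsense-mediated decay, held 0.799 ± 1.60% and 75.1 ± 21.1%, and its share passed both tests of transcript shares (adjusted p = 0.0106 by edgeR diffSpliceDGE and 0.0283 by limma). The share of BORCS8-MEF2B-203 passed by limma alone (adjusted p = 0.0283, against 0.310 by edgeR diffSpliceDGE). No other transcript of this gene was tested, so the limma values of the pair mirror each other. Another such target, BORCS8-MEF2B-201, held 28.7, 23.5, 23.4 and 0% in treated libraries 2 to 5, and 0% in every vehicle library. The vehicle shares rest on 41.7 to 135 reads per library. All these shares leave out BORCS8-MEF2B-202, which was counted to MEF2B. MEF2B summed with the read-through gene had a log2 fold change of 5.38, against 6.27 for MEF2B alone.

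**Figure D3:**
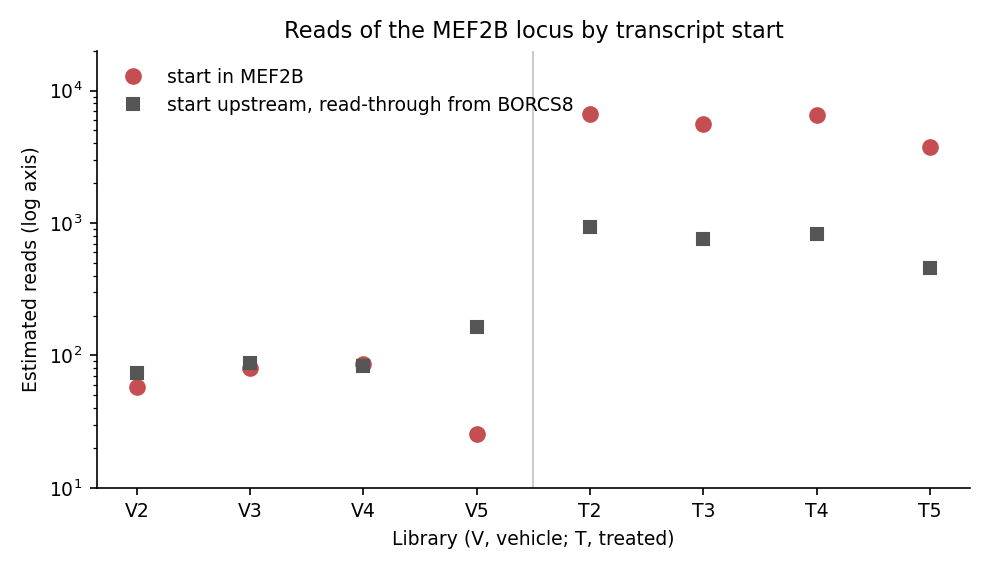
Estimated reads of transcripts that start in MEF2B (red circles) or upstream at BORCS8 (grey squares) in each vehicle (V) and treated (T) library, on a log axis. The MEF2B start holds 25.4 to 86.6 reads in vehicle and 3764 to 6659 reads in treated libraries.

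Among the other genes within 50 kb, the pattern of MEF2B was not shared by all. BORCS8, a lysosome-positioning subunit from which the read-through starts, fell (log2 fold change -0.29 ± 0.096, edgeR adjusted p = 0.0237), from 13.6 ± 1.36 to 11.1 ± 0.948 CPM. That call was lost without treated library 5 (adjusted p = 0.0524), vehicle library 4 (0.0629) or vehicle library 5 (0.0688). SLC25A42, a mitochondrial carrier of coenzyme A, rose from 8.15 ± 1.52 to 25.8 ± 3.61 CPM (1.66 ± 0.150, edgeR adjusted p = 8.57e-06). TMEM161A rose less (0.76 ± 0.217, edgeR adjusted p = 0.0126) with overlapping groups. Vehicle library 2 (6.55 CPM) and treated library 5 (12.01 CPM) were the lowest of their groups for TMEM161A, and the log2 fold change was 0.58 without the former and 0.91 without the latter. NCAN, a brain proteoglycan, fell (-0.27 ± 0.071, edgeR adjusted p = 0.00737). RFXANK, a subunit of the RFX complex, had a log2 fold change of -0.04 and NR2C2AP one of -0.14, and neither passed the test. Without vehicle library 2 NR2C2AP was called lower (-0.32, edgeR adjusted p = 0.0163).

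The main MEF2B transcript, MEF2B-204, held 77.6, 77.1, 77.3 and 72.6% of the gene's reads in treated libraries 2 to 5. In vehicle libraries it held 0, 47.0, 58.1 and 0%, of 54.5 to 127 reads. MEF2B-201 held 7.18 ± 1.24% in treated and 18.1 ± 6.69% in vehicle neurons. MEF2B-203 ranged from 0 to 79.7% across vehicle libraries, which the few reads there do not resolve.

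The promoter of MEF2B is shown because the own start accounted for most of its reads. The 250 bases before the RefSeq start (GRCh38.p14) lie at chr19:19170264-19170513 on the minus strand, and capitals mark an octamer ATGCAAAT, 82 bases before the start, and a CCAAT box, 61 bases before it.
MEF2B promoter: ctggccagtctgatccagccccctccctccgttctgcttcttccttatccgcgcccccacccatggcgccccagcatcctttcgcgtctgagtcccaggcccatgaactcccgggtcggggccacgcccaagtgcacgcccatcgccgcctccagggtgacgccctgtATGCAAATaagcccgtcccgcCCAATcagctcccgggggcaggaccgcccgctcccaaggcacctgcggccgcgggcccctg
The octamer occurred on either strand in 1.77% of the 35116 promoters of 300 bases in the table and CCAAT in 34.6%. Both were picked after this promoter was read. The window held none of TGATGNAA (the core of the C/EBP-ATF response element, in 3.62% of promoters), TGACGTCA (the cAMP response element, 1.85%), TGACGTGG (an element of the unfolded protein response, 0.729%) or the MEF2 site (2.99%), each searched on both strands.

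The promoters of 7 of the 8 members matched, 23 in all. The MEF2 site, the family's own binding motif, occurred in 1 of 3 MEF2A promoters, 1 of 7 MEF2C promoters and 1 of 5 HDAC9 promoters. They are shown because factors of the family bind this motif. The windows of 30 bases lie at chr15:99565950-99565979 (plus strand), chr5:88824501-88824530 (minus strand) and chr7:18086806-18086835 (plus strand), with the site in capitals. The motif is its own reverse complement, so each match counts for both strands, and no match overlapped another motif.
MEF2A site: aggcttgtctcCTAAAAATAGccccggtgt
MEF2C site: aatattccataTTATTTTTAAggtgttctc
HDAC9 site: cccaagaagtgCTATTTTTAGcaaattctc
TGATGNAA occurred in 1 member promoter, of MEF2C, on the other strand and 242 bases before that start. The promoters of MEF2D, HDAC4 and HDAC7 held none of the 4 motifs in these windows.

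Transcript shares within a gene were a second readout, separate from the gene totals. Over all genes, 9.34% of the 11746 genes with at least 2 transcripts tested were called for a change in transcript shares by edgeR's diffSpliceDGE and 30.1% by limma's diffSplice. Among the 7 members tested (HDAC9 had too few reads), diffSpliceDGE called 0 at an adjusted p under 0.05, with adjusted p from 0.472 to 1.00. limma called 2, MEF2C (adjusted p = 0.00519) and HDAC5 (adjusted p = 0.00638). Nothing is read from the test of MEF2B. Its vehicle libraries had 54.5 to 127 reads, and all its tested transcripts but MEF2B-201 needed the treated libraries to pass the filter. The members' calls therefore depended on the tool. Behind the limma calls stood MEF2C-217, a coding transcript with 9.80 ± 1.90% of reads in treated and 4.16 ± 3.87% in vehicle neurons, and the intron-retaining HDAC5-211 with 4.20 ± 0.703% and 1.63 ± 1.09%. In vehicle libraries 2 to 5 MEF2C-217 held 1.84, 6.64, 0 and 8.16%, and HDAC5-211 held 0, 2.10, 2.26 and 2.16%. Both transcripts were named after their values were seen. GENCODE release 29 transcripts covered 88.8 to 95.4% of the reads of MEF2A, 84.8 to 100% of MEF2C, 80.1 to 98.2% of HDAC4, 42.5 to 85.1% of HDAC9 and at least 95.01% of the other members, and shares are of the covered reads.

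The MEF2A transcripts differ in the inclusion of the short exon called β, which adds acidic residues to the activation domain and is known from muscle and brain. Its counterparts in MEF2C and MEF2D are printed with 12 bases of the transcript on either side and the exon in capitals. They lie at chr15:99703362-99703385 (plus strand), chr5:88730211-88730234 (minus strand) and chr1:156476494-156476514 (minus strand).
MEF2A β exon: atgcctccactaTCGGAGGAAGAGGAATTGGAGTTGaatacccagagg
MEF2C β exon: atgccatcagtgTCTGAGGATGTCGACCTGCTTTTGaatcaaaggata
MEF2D β exon: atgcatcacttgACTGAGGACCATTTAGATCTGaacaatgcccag
Each exon is a whole number of codons, of 24, 24 and 21 bases, so the reading frame is the same with and without it.

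In MEF2A, transcripts with the β exon held 38.7, 35.7, 36.9 and 35.4% of the reads of coding transcripts across the exon in treated libraries 2 to 5. They held 49.2, 58.8, 50.8 and 55.5% in vehicle libraries 2 to 5. Every treated library lay below every vehicle library, by 16.9 percentage points between the means (36.7 ± 1.49% against 53.6 ± 4.40%). The difference was -18.4 percentage points without vehicle library 2.

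MEF2C and MEF2D had no such separation. The MEF2C β exon was included in 71.9 ± 5.27% of treated and 72.7 ± 3.45% of vehicle reads, and the MEF2D β exon in 85.7 ± 1.73% and 87.6 ± 2.07%. Both pairs of groups overlapped.

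Another 2 coding exons of MEF2A separated the groups. The exon of 204 bases that encodes most of the MADS box and the MEF2 domain was included in 67.4, 65.1, 64.1 and 65.2% of treated and 71.3, 82.0, 78.2 and 81.3% of vehicle reads, in batch order. The exon of 132 bases, 1 of an alternative pair called α, was included in 71.6 ± 0.888% of treated and 76.3 ± 1.81% of vehicle reads. The 3 MEF2A comparisons share transcripts. MEF2A-203, which lacks both the 204-base exon and the β exon, held 33.4 ± 1.33% of reads in treated and 20.98 ± 4.39% in vehicle neurons. MEF2A-205, which has both, held 35.4 ± 1.45% and 52.1 ± 4.90%. MEF2A-202, which has the other α exon and no β exon, held 27.8 ± 0.845% and 23.2 ± 1.84%.

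Of 9 comparisons of coding exons that some transcripts of a member include and others skip, 4 separated the groups fully, 3 in MEF2A and 1 in MEF2B. Each of the 3 in MEF2A had p = 0.0286 in a two-sided exact permutation test over the 8 libraries, the smallest this design allows. After Benjamini-Hochberg adjustment over the 9, which include those of MEF2B, it was 0.0643, so none passed 0.05. The MEF2B comparison is given without a p, since MEF2B was chosen for its rise and had few vehicle reads. The MEF2B exon, of 112 bases, was included in 87.4, 88.3, 89.4 and 81.0% of reads in treated libraries 2 to 5. In vehicle libraries 2 to 5 it was included in 0, 51.9, 78.0 and 0%, where the whole gene had 54.5 to 127 reads. These percentages leave out MEF2B-203, whose exon of 133 bases contains the 112 bases. In vehicle library 2 MEF2B-203 held 45.9 reads, and the 0% there rests on 1.68 reads of MEF2B-202. The 133-base exon was included in 96.5, 0, 0 and 33.2% in vehicle libraries 2 to 5, and its groups overlapped. The separation of the 112-base exon is therefore not read as a difference in inclusion. No such count was made over the exons of all genes, so nothing is read from the count of separated groups. The exon comparisons were set up after the transcripts had been seen. They rest on reads assigned to transcripts by the quantifier, since junction reads were not used here.

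**Figure D4:**
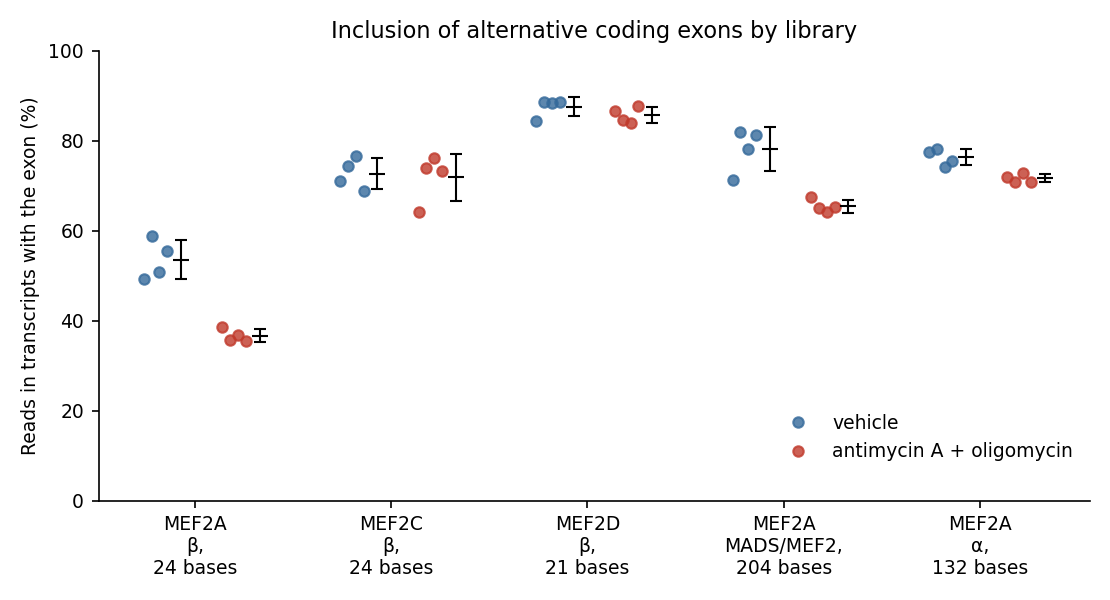
Percent of reads in coding transcripts that include each exon, among those that include or skip it, per library (blue, vehicle; red, treated; left to right, batches 2 to 5) with the mean ± SD of 4 libraries. The 3 MEF2A exons separate the groups, whereas the MEF2C and MEF2D β exons overlap.

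The other members kept 1 or 2 leading transcripts in both groups. MEF2D-201, with the β exon, held 84.7 ± 1.89% in treated and 86.6 ± 2.07% in vehicle neurons. MEF2D-202 held 14.1 ± 1.72% and 12.1 ± 2.10%. MEF2C-244 held 48.9 ± 4.51% and 55.6 ± 4.10%, ahead of MEF2C-203 at 13.0 ± 1.87% and 10.8 ± 4.34% and MEF2C-213 at 7.26 ± 1.89% and 10.7 ± 4.21%. HDAC5-204 held 59.1 ± 0.946% and 58.6 ± 3.29%, next to HDAC5-201 at 32.2 ± 0.696% and 35.3 ± 3.75%. HDAC4-215 held 63.9 ± 4.03% and 57.9 ± 4.14%, next to HDAC4-201 at 33.1 ± 4.27% and 37.5 ± 5.85%.

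HDAC7 was spread over 3 transcripts. The coding HDAC7-202 held 45.4 ± 3.50% in treated and 38.1 ± 6.48% in vehicle neurons, the coding HDAC7-201 28.7 ± 2.86% and 36.7 ± 7.27%, and the intron-retaining HDAC7-217 13.99 ± 1.69% and 14.1 ± 1.02%. In HDAC9 the short coding transcript HDAC9-203, with a coding length of 1731 bases, held 82.6 ± 12.5% and 73.0 ± 19.6% of the covered reads. The longer HDAC9-204, with a coding length of 3198 bases, held 8.67 ± 10.7% and 10.2 ± 20.5%. Short HDAC9 forms without the deacetylase domain are known as MITR. HDAC9 had 222 to 329 reads per library in all, which leaves its shares imprecise.

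The antisense genes of the members had low levels. MEF2C-AS1 was at 0.504 ± 0.0961 CPM in treated and 0.608 ± 0.102 CPM in vehicle neurons (log2 fold change -0.27, edgeR adjusted p = 0.251). MEF2C-AS2 and HDAC4-AS1 stayed under 0.1 CPM on average and HDAC9-AS1 had 0 reads in every library, so they were not tested. The strand setting of the counting is not stated in the labels, so reads of these genes and of their partners could not be told apart by strand.

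The 5 genes whose log2 CPM followed MEF2B most closely over the 8 libraries were CHAC1, a glutathione-degrading enzyme (Pearson r = 0.998), the gene ENSG00000269068 (0.998), the transcription factor CEBPB (0.998), the pseudokinase TRIB3 (0.998) and the haem oxygenase HMOX1 (0.998). The points share 2 groups and the library depths, and any gene with a like difference between the groups scores high. CHAC1 was at 180, 166, 154 and 112 CPM in treated libraries 2 to 5, and 1.67 to 2.79 CPM in vehicle libraries. Treated library 5 was the lowest treated library for both CHAC1 and MEF2B. TGATGNAA was found neither in the MEF2B window nor in the 2 matched promoters of CEBPB and the 3 of TRIB3. HMOX1 and ENSG00000269068 had no matched promoter. The CHAC1 promoter held TGATGNAA on the other strand, 209 bases before its start, at chr15:40953251-40953280.
CHAC1 window: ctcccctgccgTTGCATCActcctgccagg

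B-lineage markers were read because MEF2B is best known there. Of the 8 markers, MS4A1, which encodes CD20, had 0 reads in every library, which allows up to 0.0333 CPM by counting error alone. Their summed level was 1.40 to 2.04 CPM in treated and 3.04 to 3.41 CPM in vehicle libraries. Most of it was PAX5, which fell from 2.91 ± 0.0592 to 1.26 ± 0.168 CPM (-1.20 ± 0.120, edgeR adjusted p = 1.69e-05) and is also a midbrain gene. CD79A rose (2.05 ± 0.386, edgeR adjusted p = 0.00113) but from 0.056 to 0.232 CPM. The 8 striated muscle markers summed to 13.6 to 25.8 CPM in treated and 12.7 to 28.3 CPM in vehicle libraries, mostly MYH3, and the 6 glial markers to 3.63 to 4.77 and 2.62 to 4.76 CPM.

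Kinases that phosphorylate class IIa deacetylases moved in both directions. Of 16 listed, 7 rose and 7 fell, and 2 did not pass the test, with a median log2 fold change of 0.12. For this list and those below, the values over all genes tested were 27.7% called higher and 30.2% lower, with a median of -0.02. The salt-inducible kinase SIK3 rose (0.73 ± 0.066, edgeR adjusted p = 9.09e-06), from 50.9 ± 2.57 to 84.3 ± 4.996 CPM. The microtubule-affinity kinase MARK3 rose (0.52 ± 0.053, edgeR adjusted p = 2.06e-05) from 99.1 ± 2.58 to 142 ± 3.47 CPM, and CAMK2A rose (0.50 ± 0.107, edgeR adjusted p = 0.00263) at a treated mean of 2.45 CPM. The largest falls were those of CAMK4, a nuclear calcium-dependent kinase of neurons (-0.61 ± 0.090, edgeR adjusted p = 0.000247), CAMK1D (-0.54 ± 0.110, edgeR adjusted p = 0.00179) and protein kinase D1, PRKD1 (-0.54 ± 0.144, edgeR adjusted p = 0.00888). CAMK4 went from 41.6 ± 3.14 to 27.3 ± 2.88 CPM. With the length offset 4 fell in place of 7, and CAMK1D was among those lost (adjusted p = 0.0567).

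The 14-3-3 genes, whose proteins hold phosphorylated deacetylases in the cytoplasm, had small differences apart from SFN. Of 7, 1 rose and 3 fell, with a median of -0.14. YWHAQ fell (-0.38 ± 0.060, edgeR adjusted p = 0.000399) from 767 ± 20.5 to 591 ± 30.8 CPM. YWHAE (-0.21 ± 0.075, edgeR adjusted p = 0.0380) and YWHAZ (-0.19 ± 0.066, edgeR adjusted p = 0.0318) fell by less, and neither passed with DESeq2, without the filter on low counts or without any 1 of treated libraries 2, 3 or 4. Each of those settings left 1 of the 7 falling. SFN rose (2.12 ± 0.308, edgeR adjusted p = 0.000214) but only to 0.138 ± 0.0331 CPM.

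Calcineurin is the calcium-dependent phosphatase that returns NFAT factors, and class IIa deacetylases, to the nucleus. All 4 listed subunit genes rose, among them PPP3R1 (0.56 ± 0.089, edgeR adjusted p = 0.000395), PPP3CC (0.39 ± 0.078, edgeR adjusted p = 0.00179) and PPP3CA (0.32 ± 0.067, edgeR adjusted p = 0.00211). PPP3CC did not pass with the length offset (adjusted p = 0.159). The inhibitors RCAN3 (-1.01 ± 0.195, edgeR adjusted p = 0.00131) and RCAN2 (-0.86 ± 0.157, edgeR adjusted p = 0.000913) fell from 0.366 and 2.10 CPM. RCAN1 (-0.12) and CABIN1 (-0.16) did not pass. The median of the 8 genes was 0.07. Without vehicle library 2, 4 of the 8 fell in place of 2.

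Corepressor partners of class IIa deacetylases rose in 4 of 6 cases and fell in 0, with a median of 0.52. Over all genes tested, 27.7% were called higher and 30.2% lower. TBL1X rose (1.30 ± 0.055, edgeR adjusted p = 7.44e-08), from 25.0 ± 0.622 to 61.6 ± 0.856 CPM. TBL1XR1 rose by 0.80 ± 0.068 (edgeR adjusted p = 5.74e-06). HDAC3, the deacetylase that TBL1X and TBL1XR1 join in a complex, was at 55.9 ± 2.86 and 58.5 ± 5.94 CPM, and GPS2 did not pass either.

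Of 6 deacetylases outside class IIa, 2 rose, 1 fell and 3 did not pass, with a median of 0.12. HDAC10 (0.60 ± 0.164, edgeR adjusted p = 0.00986) and HDAC11 (0.53 ± 0.145, edgeR adjusted p = 0.0103) rose and HDAC8 fell (-0.38 ± 0.061, edgeR adjusted p = 0.000417). Part of HDAC10 overlaps MAPK12, given below, on the same strand. HDAC2, a nuclear class I enzyme, was at 552 ± 35.5 and 501 ± 34.8 CPM and did not pass. Treated library 5 was the lowest treated library for HDAC10 at 16.7 CPM, and the log2 fold change was 0.75 without it and 0.52 without vehicle library 2. That of HDAC11 was 0.40 without vehicle library 2. HDAC11 did not pass with library totals alone (adjusted p = 0.0502).

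Coactivators and kinases that act on MEF2 rose in 8 of 15 cases tested and fell in 2, with a median of 0.18. The shares over all genes tested were 27.7% called higher and 30.2% lower. NFATC1, a calcineurin-dependent partner of MEF2, rose (1.18 ± 0.091, edgeR adjusted p = 2.88e-06), from 26.9 ± 2.11 to 61.1 ± 6.36 CPM. The p38 kinase genes MAPK12 (0.61 ± 0.162, edgeR adjusted p = 0.00841) and MAPK11 (0.55 ± 0.136, edgeR adjusted p = 0.00582) rose as well. Without vehicle library 2, the lowest vehicle library for both, the log2 fold changes were 0.46 for MAPK12 and 0.44 for MAPK11. Without treated library 5 that of MAPK12 was 0.71. MAPK12 (chr22:50245450-50261825) overlaps HDAC10 (chr22:50245183-50251405) on the minus strand, and reads of the overlap were divided by estimate. Whether their rises are separate was not tested. MAPK7, which encodes ERK5, fell (-0.61 ± 0.107, edgeR adjusted p = 0.000719) from 71.8 ± 2.36 to 47.1 ± 7.50 CPM. CDK5, which can phosphorylate MEF2 factors in neurons, fell (-0.24 ± 0.082, edgeR adjusted p = 0.0272). That call was lost without 6 of the 8 libraries in turn (treated 3 to 5 and vehicle 3 to 5).

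Known MEF2 target genes did not move together. Of 17 tested, 9 rose, 5 fell and 3 did not pass, with a median of 0.54. The shares over all genes tested were 27.7% called higher and 30.2% lower. BDNF, the neurotrophin gene, rose (3.25 ± 0.170, edgeR adjusted p = 2.41e-07), with 3.85, 4.69, 4.49 and 4.61 CPM in treated libraries and 0.36 to 0.61 CPM in vehicle libraries. The nuclear receptor gene NR4A1 rose (2.84 ± 0.157, edgeR adjusted p = 3.42e-07), with 48.2, 49.98, 46.4 and 33.1 CPM against 4.95 to 7.36 CPM. Treated library 5 was again the lowest of its group, and without it the log2 fold change of NR4A1 was 2.96. LGI1, a secreted synaptic protein gene, rose (2.04 ± 0.153, edgeR adjusted p = 2.47e-06) at under 1 CPM.

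Among the falls, the mitochondrially encoded MT-ND6, which MEF2D is known to regulate inside mitochondria, was at 14.8 to 20.1 CPM in treated libraries (-2.39 ± 0.272, edgeR adjusted p = 3.95e-05). It was at 152, 69.0, 80.6 and 59.2 CPM in vehicle libraries 2 to 5, so vehicle library 2 was the highest, and without it the log2 fold change was -2.02. The early response gene EGR1 fell (-1.52 ± 0.296, edgeR adjusted p = 0.00139), with 194, 181, 82.5 and 91.6 CPM against 525, 273, 381 and 400 CPM. The protocadherin gene PCDH10 fell (-1.04 ± 0.095, edgeR adjusted p = 9.21e-06) from 13.9 ± 1.68 to 6.79 ± 0.190 CPM. These genes answer to many factors, and the part of MEF2 in their levels was not tested.

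**Figure D5:**
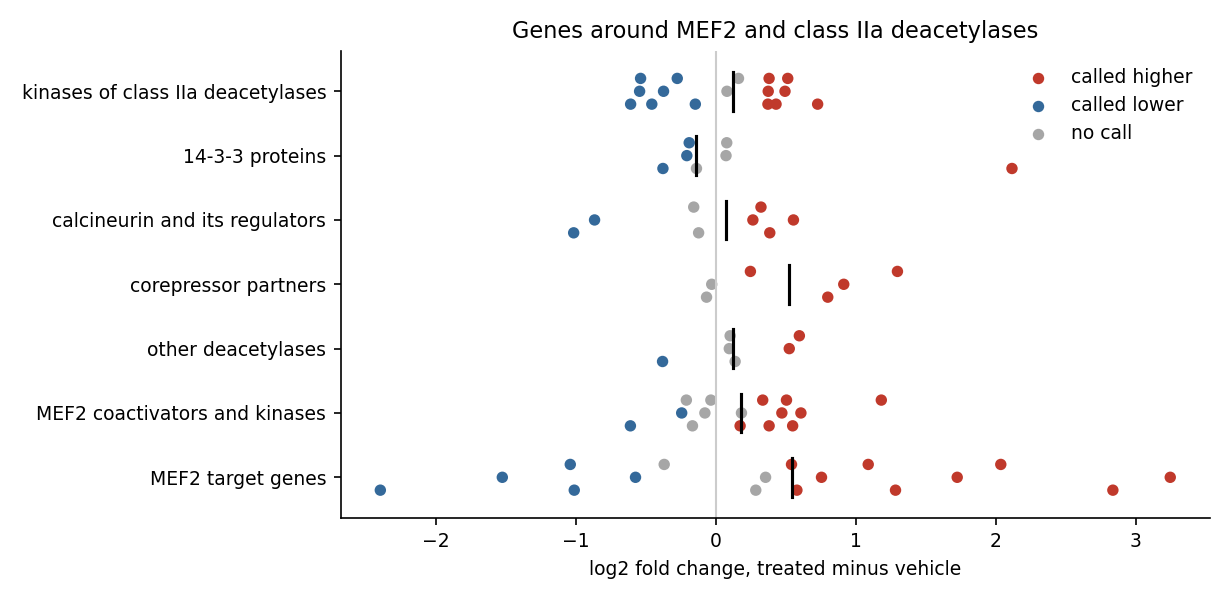
log2 fold change (treated minus vehicle) of each gene tested in the 7 lists, with 1 point per gene (red, called higher; blue, called lower; grey, no call) and a black bar at the median of the list. The corepressor partners hold no gene called lower, whereas the kinases hold 7 on each side. Over all genes tested, 27.7% were called higher and 30.2% lower.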

How the data were processed

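The authors deposited salmon-style tables per library with estimated counts, TPM and effective lengths for genes and transcripts. HISAT2, SAMtools, StringTie and hg38 are named per the submitters' processing notes, but no source used here gives the quantifier, strand setting or annotation. A further deposited table, of coding genes, gives normalised signal, log2 fold changes and p-values per the file headers. Estimated counts were rounded and tested with edgeR 4.0.16 (filterByExpr, TMM, quasi-likelihood test, Benjamini-Hochberg adjusted p under 0.05), and transcript shares with diffSpliceDGE (at least 10 reads in at least 4 libraries) and limma 3.58.1. Both were tested on simulated data, and limma was not planned but added after that test of diffSpliceDGE. Genes and transcripts were matched to GENCODE release 29, promoters to RefSeq (GRCh38.p14). Replicates are batches the labels call independent. Alternatives were DESeq2 1.42.0, library totals, no filter, a length offset, a replicate block and each library left out. Members and lists were chosen with earlier results of these data known. Genes were named by rule: all members, genes within 50 kb of MEF2B, up to 3 called genes each way per list, transcripts above a mean share of 10%, and the 5 genes most like MEF2B at a mean of at least 5 CPM. Other genes were named after their values were seen. A corepressor gene and a sequence are not reported here.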

Additional observations from a re-analysis of the deposited data

Results flagged for a closer look

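In a group of 4 libraries, a library was singled out where its gap to the nearest other passed Dixon's critical value at the 95% level, which chance does in about 1 of 20 groups. Among 62 groups examined for the members, 7 held such a library, and each was vehicle library 2 or treated library 5. In vehicle library 2, MEF2A was at 91.3 CPM against 73.8 to 75.2 CPM in the other vehicle libraries. The class IIa deacetylases summed to 53.8 TPM there against 64.3 to 66.3 TPM, and HDAC4 supplied 22.9% of that sum against 12.2 to 13.9%. In CPM, HDAC4 was lowest there (25.7 against 28.95 to 32.3 CPM). The noncoding transcript HDAC4-217 held 139 reads there and 0 in every other library, and its part in the HDAC4 share was not tested. The MEF2D β exon was included in 84.5% of reads there against 88.4 to 88.7%. In treated library 5, HDAC5 was at 116 CPM against 149 to 152 CPM, BORCS8 at 9.67 CPM against 11.4 to 11.7 CPM, and the class IIa sum was 93.5 TPM against 108 to 110 TPM. The part of batch or RNA quality in these values was not tested.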

How the results depend on the processing

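The members' fold changes kept their direction and their side of the threshold in 103 of 105 alternative values. The exceptions were MEF2C without vehicle library 2 (0.22, then called) and HDAC7 without treated library 5 (0.01). No called value changed sign. Library totals alone moved the calls to 4280 higher and 7023 lower, from 5484 and 5977, with the median of all genes at -0.12 against -0.02. Other moved counts were small ones. With DESeq2 or without the filter, 1 of the 14-3-3 genes fell in place of 3, and leaving out a library gave 1 to 3. With the length offset 4 kinases fell in place of 7, and with library totals 1 other deacetylase rose in place of 2. Leaving out a library gave 1 to 2 falls for MEF2 coactivators and kinases, 2 to 4 falls for calcineurin and its regulators and 0 to 1 for corepressor partners. For transcript shares, limma called 3534 genes and 2 members and a filter of at least 5 reads in 2 libraries called 1744 genes and 1 member (MEF2D), against 1097 and 0. Leaving out a library gave 952 to 1664 genes and 0 to 1 member (MEF2A without vehicle library 2, HDAC7 without treated library 3). The cause of these moves was not tested. Over all genes tested, same-numbered libraries did not deviate together (r = -0.0797, 0.0316, 0.0252 and -0.00136), so the numbers were not taken as pairs. Single genes could differ from this. The muscle marker MYH3 was at 7.74, 8.15, 12.5 and 17.0 CPM in treated and 8.56, 7.26, 12.3 and 20.1 CPM in vehicle libraries 2 to 5. Not every muscle marker had that order. These r therefore do not settle whether a number is shared between groups, which the labels do not state. With the replicate block 5163 genes were called higher and 5601 lower, the members' calls were the same, 1 of the 14-3-3 genes and 1 of the MEF2 coactivators and kinases fell, and the calls of BORCS8, YWHAE, YWHAZ and CDK5 were lost. On the gene strand only, 0 members held TGATGNAA in place of 1. Identity of the proteins was not run. Depth limits MEF2B in vehicle libraries and HDAC9 throughout.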
